A study of Mus musculus with 2 samples.

Results

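Bmp2, Bmp6, Wnt2, Wnt9b, Rspo3 and Dll4 were followed in liver endothelial cells. They are 6 of the 26078 genes in the count matrices and were taken by symbol as sinusoidal signals that act on hepatocytes or on vessel identity. The libraries are droplet-based single-cell RNA libraries of macrophage-enriched liver cells from mice of the C57BL/6J strain, 7 to 10 weeks old. Cells of 1 library came from treatment with the antibody Ter119, which binds an antigen of mouse red cells, and cells of the other from saline. Ter119 was injected as a first dose of 35 ug followed by 10 daily doses of 10 ug, and livers were collected at 24 (unit not given in the labels) from the final injection. Non-parenchymal cells were enriched with beads against F4/80 and CD11b, so the share of endothelial cells in each preparation can be set by that step. Each treatment is 1 library with 1 replicate in the labels, and is taken here and below as 1 mouse. The preparations were pooled, and how they were separated is not given. Effects of the antibody, the animal and the library cannot be told apart. Intervals below cover counting error of unique molecular identifiers (UMIs) only.

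Sinusoidal endothelial cells line the capillaries of the liver and send signals to the hepatocytes beside them. BMP2 and BMP6, released by these cells, act on BMP receptors of hepatocytes and raise the transcription of hepcidin, the hormone that limits iron export. WNT2 and WNT9B come from endothelial cells around the central vein and, with R-spondin 3, which stabilizes Wnt receptors, sustain the pericentral program of hepatocytes. DLL4 is a membrane-bound Notch ligand of endothelial cells.

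The Ter119 library held 25760 barcodes with a median of 1854 UMIs, and the saline library held 18354 with a median of 3523. After filtering, 13846 Ter119 cells (median 2803 UMIs) and 11572 saline cells (median 6239 UMIs) remained. A cell was called endothelial when it had a UMI for at least 4 of 12 endothelial markers and at least 2 times as many endothelial as Kupffer marker UMIs. This gave 1095 Ter119 cells, or 7.91% of kept cells (exact 95% interval 7.46 to 8.37), and 607 saline cells, or 5.25% (4.85 to 5.67). A further 1119 Ter119 and 2693 saline cells met the marker minimum but not the ratio. They are called mixed and were counted among the other cells. The libraries shared 133 barcode sequences, of which 2 Ter119 and 6 saline gated cells carried 1.

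The gated cells carried marker genes of liver sinusoidal endothelium, although the preparation is labelled as macrophages. Clec4g, a lectin of sinusoidal endothelial cells, stood at 1746 counts scaled to a total of 1000000 UMIs (CPM) in Ter119 gated cells, against 58.5 CPM in other Ter119 cells, and at 2889 CPM in saline gated cells, against 46.5 CPM in other saline cells. Stab2, a scavenger receptor of these cells, stood at 870.7 CPM, against 62.3 CPM, in Ter119 and at 1219 CPM, against 127.5 CPM, in saline. Both are among the markers that defined the gate, so their excess in gated cells follows from it. A list of endothelial genes other than the gate markers is described further on. Cdh5, another gate marker, was poorly separated in saline, at 1107 CPM in gated, 633.8 CPM in other and 686.5 CPM in mixed cells. In Ter119 it stood at 681.6 CPM in gated cells, against 91.8 CPM in other cells. The 10 Kupffer markers, whose UMIs the gate limits, were not absent from gated cells. They summed to 3354 CPM, against 12480 CPM in other cells, in Ter119 and to 2688 CPM, against 23990 CPM, in saline, and none of the 10 was at 0. Median depth in gated cells was 1447 UMIs in Ter119 and 3751 UMIs in saline.

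All 6 genes were higher in gated endothelial cells than in other cells of the same library, in both libraries. By edgeR's quasi-likelihood test on counts summed per mouse and class, with mouse as a block and Benjamini-Hochberg adjustment over 13785 genes, 6 of 6 were called higher, beside 17.8% of all genes. By size, 6 of 6 were at least 2-fold higher in each library, beside 22.3% of genes in Ter119 and 21.3% in saline, and 0 of 6 were as much lower, beside 11.1% and 14.0%. These shares are over genes with at least 20 CPM in gated or other cells. Wnt9b in both libraries and Rspo3 in saline were below that level, so for them the shares are no like background. Bmp6, Wnt2 and Dll4 in both libraries and Rspo3 in Ter119 reached it in gated cells only. Given their low levels in other cells, reaching it meant being called higher, so their part of the count was fixed by the filter. Wnt9b passed the low-count filter of edgeR through gated cells only, so it could not have been called lower. The edgeR test has 1 residual degree of freedom, and its spread includes any difference that goes with treatment, since the 2 mice differ in it. The genes were chosen as endothelial signals with earlier results of these data known, so this count describes them and does not stand as independent support.

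Bmp2 (ENSMUSG00000027358, GRCm38 chromosome 2, 133552159 to 133562885, plus strand) was the most abundant of the 6. It stood at 1016 CPM in Ter119 gated cells (1879 UMIs, Poisson 95% interval 970.2 to 1063), against 35.5 CPM in other Ter119 cells, a ratio of 28.6 (26.8 to 30.6). In saline gated cells it stood at 2052 CPM (4826 UMIs, 1995 to 2111), against 32.2 CPM in other saline cells, a ratio of 63.8 (60.8 to 66.9). Gated cells lay far above other cells in each library, and the edgeR log2 fold change was 5.12 (SE 0.37, adjusted p = 5.29e-05). A UMI of Bmp2 was present in 77.3% of Ter119 and 94.4% of saline gated cells, against 3.15% of Ter119 and 5.71% of saline other cells that were not mixed, whose median depths were 2927 UMIs in Ter119 and 5536 UMIs in saline. With each cell thinned to 1000 UMIs, these shares were 64.0% of Ter119 and 81.4% of saline gated cells, against 1.27% and 1.39% of the same other cells. Among 6876 genes in Ter119 and 7662 in saline with enough counts, the endothelial ratio of Bmp2 ranked 124th in Ter119 and 55th in saline.

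Bmp6 (ENSMUSG00000039004, chromosome 13, 38345107 to 38500302, plus strand) is the BMP ligand whose endothelial transcription is known to follow liver iron, and NRF2, a factor that binds antioxidant response elements, is known to act on it in mouse endothelial cells. A stretch of sequence is shown because it holds a match to the core of that element. RefSeq's GRCm38.p6 promoter windows, which run from 250 bases before to 50 after a gene's start, were matched for 4 of the 6 genes by symbol. The motif searched was TGACNNNGC on both strands, whose matches cannot overlap those of the GGAA motif used further on. It begins 108 bases before the RefSeq start, which is 501 bases after the gene's start in GENCODE vM21, and 12.4% of the 32851 windows of 300 bases hold it. Capitals mark the match in chr13:38345598-38345626, plus strand, 5′ to 3′.
Bmp6: agactgcgagTGACCGTGCcgtgacccgc

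Bmp6 stood at 176.2 CPM in Ter119 gated cells (326 UMIs, 157.6 to 196.4), against 6.52 CPM in other cells, and at 208.8 CPM in saline gated cells (491 UMIs, 190.7 to 228.1), against 4.04 CPM. The ratio of gated over other cells was 27.0 in Ter119 and 51.7 in saline, and the edgeR log2 fold change was 4.93 (SE 0.31, adjusted p = 3.96e-05). Bmp6 was thus enriched in gated cells about as much as Bmp2 while its level was several times lower. After thinning, 16.9% of Ter119 and 19.6% of saline gated cells had a Bmp6 UMI, and 216 Ter119 and 283 saline gated cells had UMIs of both BMP ligands.

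Wnt2 (ENSMUSG00000010797, chromosome 6, 17988940 to 18030585, minus strand) is the more abundant of the 2 Wnt ligands followed here. The 110 bases before both annotated starts are shown with matches to GGAA, the core of the sites that ETS factors of endothelial cells bind, in capitals on either strand. The window chr6:18030586-18030695, minus strand, holds 2 matches, and 71.1% of all windows of the same length hold at least 1, so its presence sets Wnt2 apart from few genes.
Wnt2: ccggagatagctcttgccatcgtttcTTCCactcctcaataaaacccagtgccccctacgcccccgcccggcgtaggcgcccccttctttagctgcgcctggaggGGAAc

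Wnt2 stood at 144.3 CPM in Ter119 gated cells (267 UMIs, 127.5 to 162.7), against 4.92 CPM in other cells, and at 237.3 CPM in saline gated cells (558 UMIs, 218.0 to 257.8), against 3.86 CPM. The ratios were 29.4 in Ter119 and 61.4 in saline, and the edgeR log2 fold change was 5.13 (SE 0.33, adjusted p = 4.02e-05). A Wnt2 UMI was present in 211 of 1095 Ter119 and 275 of 607 saline gated cells. After thinning the shares were 13.8% in Ter119, against 0.215% of other cells that were not mixed, and 19.8% in saline, against 0.133%.

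Wnt9b (ENSMUSG00000018486, chromosome 11, 103727364 to 103749821, minus strand) was close to the limit of detection. It had 8 UMIs in Ter119 gated cells (4.32 CPM, 1.87 to 8.52), against 7 UMIs in the other Ter119 cells (0.161 CPM), of which 6 lay in mixed cells. In saline it had 9 UMIs in gated cells (3.83 CPM, 1.75 to 7.26) and 0 in 80253621 UMIs of other cells, which makes it at least 102.4-fold higher when the other cells are set to a floor of 3 counts over the group. Few as they are, the Wnt9b UMIs lay almost wholly in gated or mixed cells. The edgeR adjusted p was 0.00582 with mouse as a block and 0.0889 without it, so the call of Wnt9b was lost without the block.

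Rspo3 (ENSMUSG00000019880, chromosome 10, 29452416 to 29535867, minus strand) was the least endothelial of the 6. It had 38 UMIs in Ter119 gated cells (20.5 CPM, 14.5 to 28.2), against 2.46 CPM in other cells, and 25 UMIs in saline gated cells (10.6 CPM, 6.88 to 15.7), against 1.94 CPM. The ratios were 8.36 (5.61 to 12.2) in Ter119 and 5.47 (3.43 to 8.38) in saline, and the edgeR log2 fold change was 2.47 (SE 0.35, adjusted p = 0.00113). The UMIs came from few cells, 18 in Ter119 and 9 in saline, and 1 saline cell held 14 of the 25.

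Dll4 (ENSMUSG00000027314, chromosome 2, 119325784 to 119335962, plus strand) stood at 75.1 CPM in Ter119 gated cells (139 UMIs, 63.2 to 88.7), against 2.21 CPM in other cells, and at 108.9 CPM in saline gated cells (256 UMIs, 95.9 to 123.1), against 1.96 CPM. The ratios were 34.1 in Ter119 and 55.7 in saline, and the edgeR log2 fold change was 5.17 (SE 0.28, adjusted p = 3.96e-05). By this ratio Dll4 ranked 38th of 6876 genes in Ter119 and 125th of 7662 in saline, above Bmp2 in Ter119 and below it in saline. Dll4 reached the minimum level for this ranking in gated cells only, so the rank is a description. After thinning, 8.22% of Ter119 and 9.06% of saline gated cells had a Dll4 UMI. The 250 bases before both annotated starts, chr2:119325534-119325783, plus strand, are shown beside those of Wnt2 since the cells that held the 2 genes differed in regional markers, as described further on. They hold 2 matches to GGAA in capitals, as do at least 1 in 93.5% of windows of that length.
Dll4: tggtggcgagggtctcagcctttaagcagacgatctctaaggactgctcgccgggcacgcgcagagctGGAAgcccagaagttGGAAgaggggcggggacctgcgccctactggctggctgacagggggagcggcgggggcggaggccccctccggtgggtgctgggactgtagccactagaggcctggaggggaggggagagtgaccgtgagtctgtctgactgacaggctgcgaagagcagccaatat

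**Figure D1:**
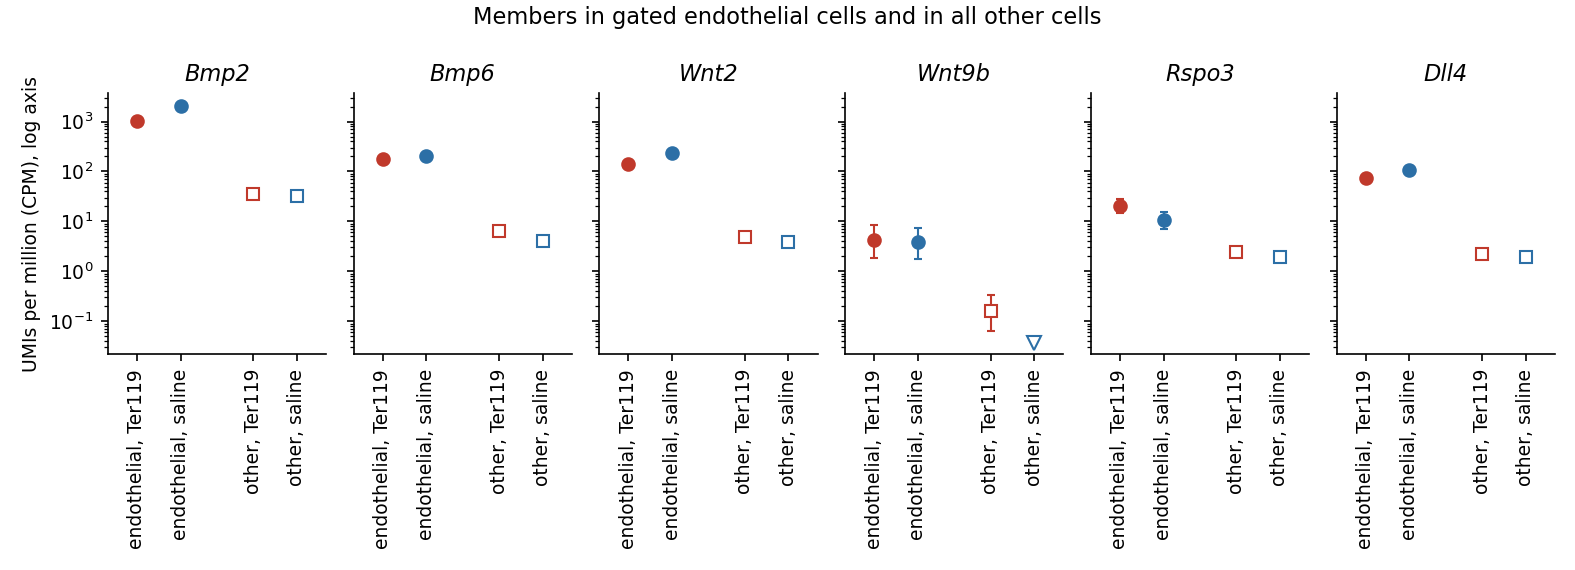
Levels of the 6 genes in CPM on a log axis, in gated endothelial cells (filled circles) and all other kept cells (open squares) of the Ter119 and saline libraries, with Poisson 95% intervals of the counts. Gated cells lay above other cells for each gene in both libraries; the open triangle is the floor of 3 counts for Wnt9b in other saline cells, where it had 0 UMIs.

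The order of the levels in gated cells was Bmp2, Bmp6, Wnt2, Dll4, Rspo3 and Wnt9b in Ter119, and Bmp2, Wnt2, Bmp6, Dll4, Rspo3 and Wnt9b in saline. The neighbours Bmp6 and Wnt2 had overlapping intervals in saline and, by a narrow margin, in Ter119. Rspo3 and Wnt9b overlapped in saline, and the other neighbours were separated beyond counting error. Counts come from transcript ends and were not divided by gene length. Of Ter119 gated cells, 513 had UMIs of 1 of the 6 genes, 338 of 2 and 89 of 3, and of saline gated cells, 126 had UMIs of 1, 230 of 2 and 178 of 3. In saline, Bmp2 was higher in gated cells with more gate markers detected, at 1103 CPM with 7 or 8 markers (71 cells, 921.9 to 1308) and 2112 CPM with 9 to 12 (521 cells, 2052 to 2174). In Ter119 the neighbouring steps overlapped, at 879.4 CPM with 5 or 6 markers (727.3 to 1054), 979.7 CPM with 7 or 8 (905.8 to 1058) and 1056 CPM with 9 to 12 (994.3 to 1120). Dll4 in Ter119 was at 90.2 CPM, 73.9 CPM and 74.3 CPM over the same steps, with overlapping intervals.

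Just outside the gate, levels lay between those of the 2 populations. Mixed cells had Bmp2 at 244.3 CPM in Ter119 and 75.5 CPM in saline, and held most Bmp2 UMIs of the other cells, 1138 of 1544 in Ter119 and 2053 of 2582 in saline. Without mixed cells, the other cells had Bmp2 at 10.4 CPM in Ter119 and 9.97 CPM in saline, Bmp6 at 1.72 CPM in Ter119 and 1.28 CPM in saline, Wnt2 at 1.90 CPM in Ter119 and 1.36 CPM in saline, and Dll4 at 0.694 CPM in Ter119 and 0.678 CPM in saline. Rspo3 without mixed cells was at 1.62 CPM in Ter119 and 1.75 CPM in saline, and mixed cells held a smaller share of its UMIs in the other cells, 44 of 107 in Ter119 and 63 of 156 in saline.

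Clusters built without the 6 genes gave the same picture for 5 of them. The endothelial-like class (1995 Ter119 and 830 saline cells) held 85.5% of Bmp2, 85.1% of Bmp6, 81.1% of Wnt2 and 86.4% of Dll4 UMIs of the Ter119 library. Of the saline library it held 82.0% of Bmp2, 76.6% of Bmp6, 82.8% of Wnt2 and 80.2% of Dll4 UMIs. It also held 13 of 15 Wnt9b UMIs in Ter119 and 9 of 9 in saline. In Ter119 this class includes a cluster of 706 cells, led by endothelial genes, of which the gate called 41 endothelial and 556 mixed. A saline cluster of 635 cells led by genes of both endothelial and Kupffer cells, 509 of them mixed, is not in the class. Kupffer-like cells, the largest named class, had Bmp2 at 9.78 CPM in Ter119 and 11.3 CPM in saline, and Bmp6, Wnt2 and Dll4 between 0.639 and 2.05 CPM. Monocyte-like, neutrophil-like and proliferating-like cells had Bmp2 between 8.80 and 15.9 CPM, a like low level over types.

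Rspo3 followed another class. The stellate or fibroblast-like cluster, 71 Ter119 cells, had Rspo3 at 264.4 CPM (68 UMIs, 205.3 to 335.2) and Dcn, a collagen-binding proteoglycan of fibroblasts and stellate cells, at 7344 CPM. It held 46.9% of all Rspo3 UMIs of the Ter119 library, while the endothelial-like class, at 8.08 CPM, held 28.3%. The same cluster had Bmp2 at 178.8 CPM and Clec4g at 272.2 CPM, so endothelial RNA was present in it too. Only 21 saline cells fell into this cluster, too few to be given as a class. At the lower clustering resolution the class of that name held 59 Ter119 cells, with Rspo3 at 320.0 CPM (66 UMIs, 247.5 to 407.1), and 79 saline cells, with Rspo3 at 54.1 CPM (41 UMIs, 38.8 to 73.4), or 22.7% of Rspo3 UMIs of the saline library. Dcn had a UMI in 98.3% of these Ter119 cells and 51.9% of these saline cells. In saline at the resolution used elsewhere, the endothelial-like class had Rspo3 at 2.39 CPM (10 UMIs), against 1.87 CPM in Kupffer-like cells, with overlapping intervals. The Kupffer-like class, by far the largest, held 61.3% of saline Rspo3 UMIs.

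**Figure D2:**
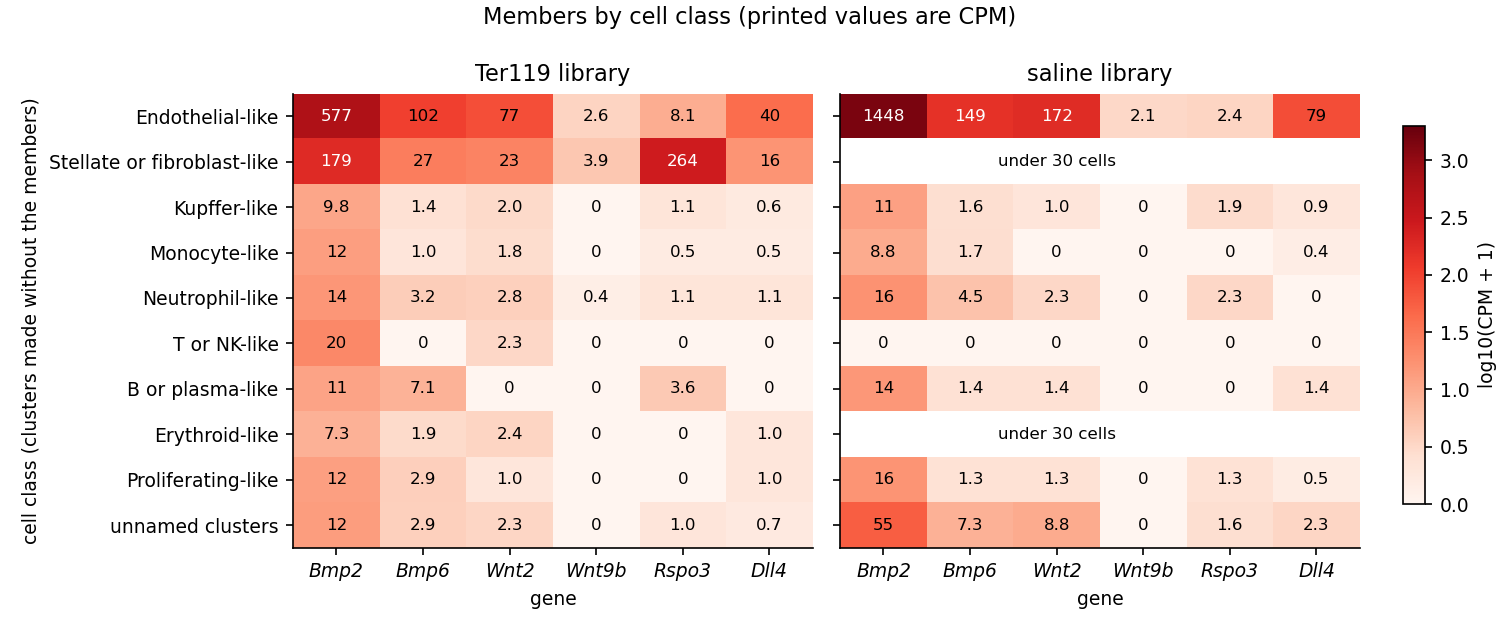
CPM of the 6 genes (columns) in each cell class (rows) of the Ter119 library and the saline library, with colour on a log10(CPM + 1) scale; classes come from clusters made without the 6 genes, and classes with under 30 cells are blank. Bmp2, Bmp6, Wnt2 and Dll4 were highest in endothelial-like cells, and Rspo3 stood at 264 CPM in Ter119 stellate or fibroblast-like cells, against 8.1 CPM in endothelial-like cells.

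Within the gate, Rspo3 went with stellate markers. Of 8 such markers, at least 2 had a UMI in 74 Ter119 gated cells (6.76%), which held 18 of 38 Rspo3 UMIs (112.6 CPM), and in 47 saline gated cells (7.74%), which held 19 of 25 (79.0 CPM). Those UMIs lay in 8 of the 74 Ter119 cells and in 3 of the 47 saline cells. In saline, 1 cell alone held 14 of the 19, so the saline level rests largely on 1 barcode. Gated cells with none of the 8 had Rspo3 at 14.2 CPM in Ter119 (20 UMIs in 10 cells, 8.65 to 21.9) and at 1.87 CPM in saline (3 UMIs in 3 cells, 0.385 to 5.46). The saline value is that of other saline cells, while the Ter119 value lies above that of other Ter119 cells. The 8 stellate markers summed to 719.9 CPM in Ter119 gated cells, against 94.3 CPM in other cells, and to 474.2 CPM, against 89.7 CPM, in saline, with none at 0. Without the cells with at least 2 of them, an alternative chosen after the data were seen, the log2 ratio of Rspo3 in gated over other cells was 2.27 in Ter119 and 0.55 in saline. No doublets were called, and whether these barcodes hold RNA of 2 cells was not tested.

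**Figure D3:**
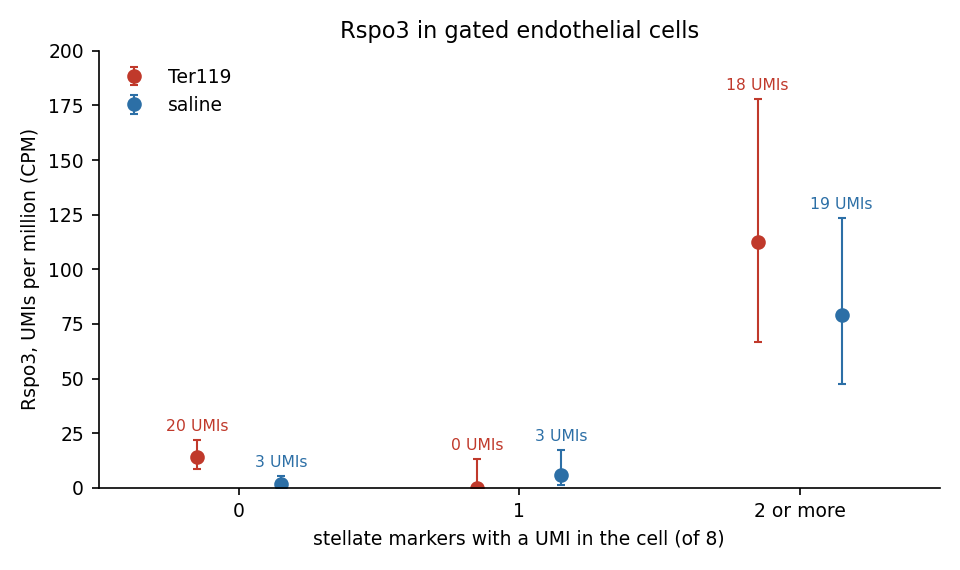
Rspo3 in CPM in gated endothelial cells with UMIs of 0, 1 or at least 2 of 8 stellate markers, for the Ter119 and saline libraries, with Poisson 95% intervals and the UMI counts beside the points. The cells with at least 2 markers stood at 112.6 CPM in Ter119 and 79.0 CPM in saline, above the cells with none. Their saline UMIs lay in 3 cells, 1 of which held 14.

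Gated cells with Wnt2 and gated cells with Dll4 differed in regional markers, and 21 Ter119 and 81 saline cells had UMIs of both. The sinusoid is zoned, and markers of its pericentral end (Kit, Thbd, Cdh13, Lfng, Gja4, Ramp3) and its periportal end (Efnb2, Ltbp4, Ntn4, Msr1, Adgrg6, Il1a) were listed as region markers. Gated cells with a Wnt2 UMI had more Kit, the stem cell factor receptor, than those without: 224.4 CPM with and 128.0 CPM without Wnt2 in Ter119, a ratio of 1.75 (1.34 to 2.28), and 374.5 CPM with and 221.8 CPM without in saline, a ratio of 1.69 (1.45 to 1.98). Thbd, which encodes thrombomodulin, stood at 150.5 CPM with and 81.5 CPM without Wnt2 in Ter119 and at 241.3 CPM with and 98.3 CPM without in saline. Cdh13, Lfng and Gja4 were also higher in cells with Wnt2 in both libraries, with intervals above a ratio of 1. Ramp3 had 2 UMIs in Ter119 and 9 in saline and could not be compared.

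Periportal markers ran the other way. Efnb2, which encodes ephrin-B2, a protein of arterial endothelium, stood at 38.3 CPM in Ter119 cells with Wnt2, against 81.5 CPM in those without, and at 86.5 CPM, against 131.3 CPM, in saline. Ntn4, a netrin, stood at 169.7 CPM with and 352.2 CPM without Wnt2 in Ter119 and at 235.5 CPM with and 352.2 CPM without in saline. Msr1, a scavenger receptor, stood at 175.1 CPM with and 387.9 CPM without Wnt2 in Ter119 and at 238.0 CPM with and 415.7 CPM without in saline. Msr1 is also present outside endothelium, at 213.2 CPM in Ter119 and 398.2 CPM in saline cells that were neither gated nor mixed, whereas Efnb2 and Ntn4 were at 1.29 to 5.58 CPM there. Kupffer markers summed to 3522 CPM with and 3312 CPM without Wnt2 in Ter119, and to 2638 CPM with and 2740 CPM without in saline. The 8 stellate markers moved with the split, and summed to 407.7 CPM with and 796.8 CPM without Wnt2 in Ter119, and to 256.3 CPM with and 701.8 CPM without in saline. Their part in the regional differences was not tested. Ltbp4 and Il1a had intervals that reach or include a ratio of 1 in both libraries, and Adgrg6 had at most 10 UMIs in a library.

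The UMIs of Wnt9b lay with Wnt2 in saline, where 8 of 9 were in gated cells with Wnt2, and were split 4 and 4 in Ter119. Cells with Dll4 had more Efnb2 than cells without, 127.7 CPM with and 65.6 CPM without Dll4 in Ter119, a ratio of 1.95 (1.24 to 2.98), and 152.3 CPM with and 84.9 CPM without in saline, a ratio of 1.79 (1.39 to 2.31). They also had more Msr1, at 488.1 CPM with and 326.8 CPM without in Ter119 and 404.6 CPM with and 282.2 CPM without in saline, and more Ntn4, with ratios of 1.28 (1.01 to 1.61) in Ter119 and 1.46 (1.25 to 1.70) in saline. Wnt2 was lower in saline cells with Dll4, at 175.5 CPM against 270.4 CPM without Dll4, a ratio of 0.649 (0.533 to 0.786), and in Ter119 the ratio was 0.803 (0.514 to 1.20). Kit was at 0.754 (0.638 to 0.890) of its level in saline cells without Dll4 and at 0.720 (0.453 to 1.10) in Ter119. The stellate markers summed to 944.3 CPM with and 689.8 CPM without Dll4 in Ter119, and to 251.0 CPM with and 593.8 CPM without in saline, so they ran in opposite directions in the 2 libraries.

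The BMP ligands showed less of this pattern, and Bmp2 was higher in cells with Wnt2 by a smaller margin than Kit or Thbd. Bmp2 stood at 1078 CPM with and 1000 CPM without Wnt2 in Ter119, and at 2193 CPM with and 1905 CPM without in saline, and Bmp6 had intervals that include a ratio of 1 in both libraries for both splits. A split by detection also sorts cells by depth, and cells with Wnt2 had medians of 1507 UMIs in Ter119 and 4277 UMIs in saline, against 1432 UMIs in Ter119 and 3303 UMIs in saline cells without it. Each library is 1 mouse, and cells are not replicates of it. Clusters of the gated cells alone gave 8 groups, none of which met the rule for a regional name.

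**Figure D4:**
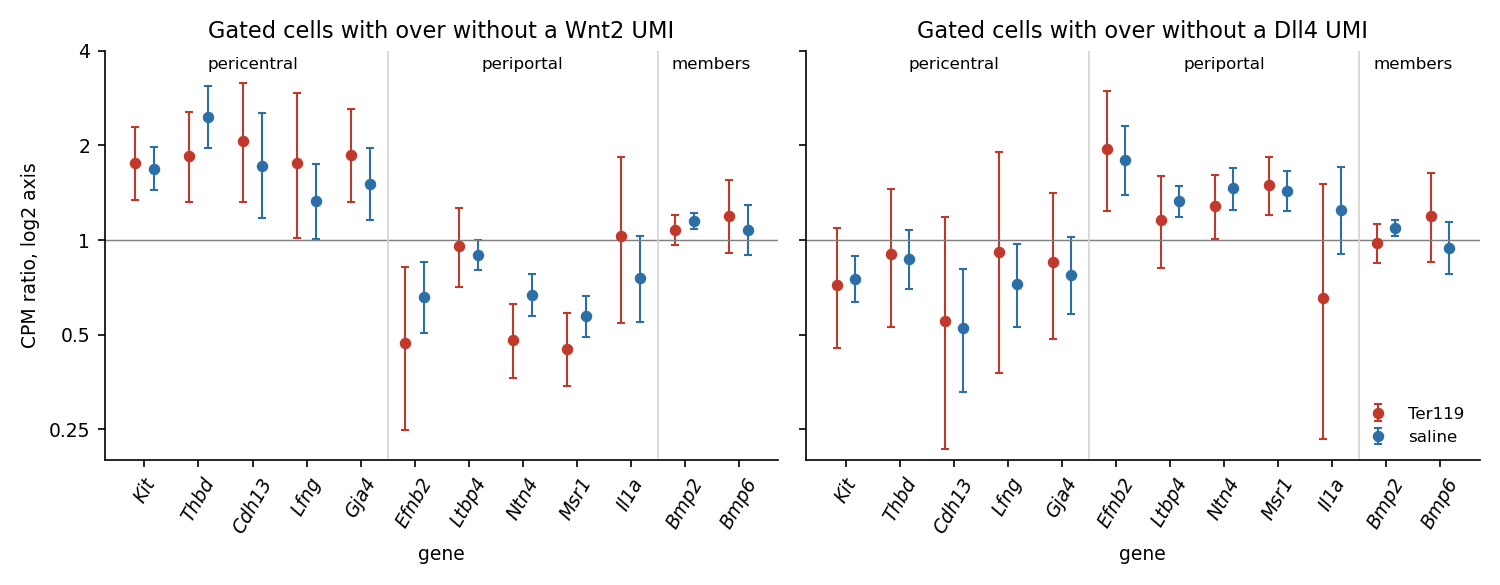
Ratio of CPM, on a log2 axis, between gated endothelial cells with and without a UMI of Wnt2 (left) or Dll4 (right), for pericentral markers, periportal markers and the 2 BMP ligands, in the Ter119 and saline libraries with exact conditional 95% intervals. Kit, Thbd, Cdh13, Lfng and Gja4 were above 1 and Efnb2, Ntn4 and Msr1 below 1 in cells with Wnt2 in both libraries, and Efnb2 was above 1 in cells with Dll4.

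Ter119 and saline gated cells were compared by size only, since each is 1 mouse. Of 7161 genes with at least 20 CPM in 1 library, 2.70% were higher in Ter119 by 2-fold or more and 6.16% were lower by as much. A gene that reached this level in 1 library only could be called only as higher there. Among genes named below, this holds for Rspo3 and Nqo1 in Ter119 and for Twsg1, Dkk3, Nrarp, Mfng and Hamp in saline. Of the 6 genes, 0 were higher and 1, Bmp2, was lower by this rule, with Wnt9b under 20 CPM in both libraries. Bmp2 was at 0.495 (0.469 to 0.522) of its saline level. Wnt2 was at 0.608 (0.524 to 0.705), Dll4 at 0.690 (0.557 to 0.852) and Bmp6 at 0.844 (0.731 to 0.973). Rspo3 was at 1.93 (1.14 to 3.34), and Wnt9b, at 1.13 (0.379 to 3.299), could not be placed at this depth.

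These values depend on the scale used, and gated cells of the 2 libraries also differed in other RNA. All 12 gate markers were lower in Ter119 gated cells, at 0.446 to 0.786 of saline with a median of 0.643. The lowest was Aqp1, a water channel, at 1398 CPM in Ter119 and 3134 CPM in saline. Hemoglobin genes made up 9.42% of UMIs in Ter119 gated cells and 0.000595% in saline gated cells, and the 8 neutrophil markers summed to 5895 CPM in Ter119 and 376.8 CPM in saline. With CPM taken without hemoglobin and mitochondrial genes, Bmp2 was at 0.535, Wnt2 at 0.66, Dll4 at 0.746, Bmp6 at 0.912 and Rspo3 at 2.09. How far RNA of other cells sets these ratios was not tested. Per UMI of the 12 gate markers, a scale chosen after the data were seen, Bmp2 was at 0.787 (0.746 to 0.830), Wnt2 at 0.967 (0.833 to 1.12), Dll4 at 1.10 (0.886 to 1.36), Bmp6 at 1.34 (1.16 to 1.55) and Rspo3 at 3.07 (1.81 to 5.31). Bmp2 was thus lower on each scale, Wnt2 and Dll4 not once related to the markers, and Bmp6 lay below 1 from CPM and above 1 per marker UMI. With edgeR's TMM factors the log2 ratio of Bmp6 was 0.01, against -0.24 from CPM, and that of Bmp2 was -0.76, against -1.02. The median log2 ratio of all 7161 genes was -0.27 from CPM and -0.01 with TMM factors, and of the genes past 2-fold 30.4% were higher from CPM and 59.7% with TMM factors.

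The difference of Bmp2 was not even over the gate. In cells with 7 or 8 markers it stood at 979.7 CPM in Ter119 (905.8 to 1058) and 1103 CPM in saline (921.9 to 1308), while with 9 to 12 markers it stood at 1056 CPM in Ter119 and 2112 CPM in saline. Depth was not matched within these steps, and gated cells had medians of 1447 UMIs in Ter119 and 3751 UMIs in saline. The part of depth in this was not tested. Where mixed cells were counted as endothelial, all 4 of Bmp2, Bmp6, Wnt2 and Dll4 were higher in Ter119, with log2 ratios from 0.99 to 1.72. Saline mixed cells had lower levels of these 4 genes than Ter119 mixed cells. Mixed cells also made up more of the saline pool, with 27193899 UMIs beside 2351507 in gated cells, against 4657658 beside 1850169 in Ter119. The part of each was not tested. For Rspo3, the ratio without gated cells with at least 2 stellate markers was 2.06 on the log2 scale, from 20 Ter119 and 6 saline UMIs.

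**Figure D5:**
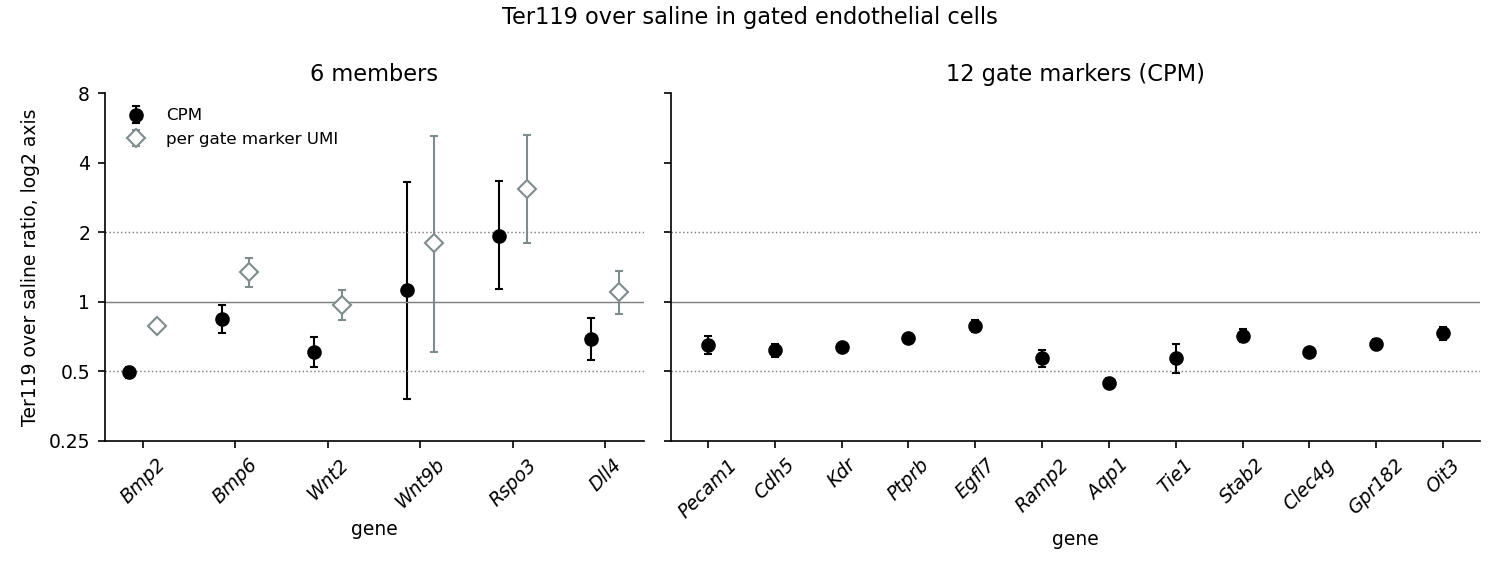
Ratio of Ter119 over saline in gated endothelial cells on a log2 axis with exact conditional 95% intervals, for the 6 genes from CPM (filled) and per UMI of the 12 gate markers (open), and for the 12 gate markers from CPM. Bmp2, at 0.495, and all 12 markers, between 0.446 and 0.786, were below 1 from CPM, and Bmp6 was at 0.844 from CPM and 1.34 per marker UMI; dotted lines mark 2-fold.

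The rest of each pathway was followed through lists. Of the 38 BMP pathway genes measured, 30 passed the filter on low counts. Of these 30, 17 were higher and 3 lower in gated than in other cells by edgeR, with a median log2 fold change of 1.37, against -0.07 over all genes, of which 17.8% were called higher and 18.2% lower. Between Ter119 and saline, 0 of 16 were higher and 3 lower by 2-fold or more, with a median log2 ratio of -0.56, beside 2.70% and 6.16% of all genes and their median of -0.27. With TMM or median-of-ratios factors 1 of the 16 was lower by as much. Inhbb, a subunit of activin B, was the furthest, at 22.2 CPM in Ter119 and 97.8 CPM in saline, a ratio of 0.227 (0.158 to 0.317). Smad6, an inhibitory SMAD that BMP signalling induces, stood at 75.7 CPM in Ter119 and 167.1 CPM in saline, a ratio of 0.453. Smad7, another of these, missed the 2-fold rule at 149.7 CPM in Ter119 and 259.4 CPM in saline, a ratio of 0.577. Twsg1, a secreted BMP modulator, stood at 12.97 CPM in Ter119 and 26.4 CPM in saline. The BMP targets Id1, Id2 and Id3, named after their values were seen, were at 1.19, 1.275 and 0.658 of saline from CPM. Per gate marker UMI, these 3 were at 1.90, 2.03 and 1.05, Inhbb was at 0.360, Smad6 at 0.720 and Smad7 at 0.918. On that scale the list's median log2 ratio was 0.10, against 0.40 over all genes.

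Of 30 Wnt pathway genes, 12 were higher and 3 lower in gated than in other cells by edgeR, beside 17.8% and 18.2% of all genes, with a median log2 fold change of 0.85. Between Ter119 and saline, 0 of 15 were higher and 3 lower by 2-fold or more, beside 2.70% and 6.16% of all genes, with a median log2 ratio of -0.44. Tcf7l1, a transcription factor of the pathway, stood at 61.6 CPM in Ter119 and 137.8 CPM in saline. Lrp5, a Wnt co-receptor, stood at 40.0 CPM in Ter119 and 86.3 CPM in saline, and Nkd1, an inhibitor that the pathway induces, at 27.0 CPM in Ter119 and 54.9 CPM in saline. Dkk3 stood at 14.1 CPM in Ter119 and 25.1 CPM in saline. With TMM factors none of the 15 was past 2-fold, so the 3 lower genes rest on the scale.

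Of 24 Notch pathway genes, 10 were higher and 5 lower in gated than in other cells by edgeR, with a median log2 fold change of 0.37. The share of lower genes is near the 18.2% of all genes, of which 17.8% were higher. Between Ter119 and saline, 0 of 19 were higher and 3 lower by 2-fold or more, beside 2.70% and 6.16% of all genes, with a median log2 ratio of -0.41. With TMM or median-of-ratios factors 2 were lower by as much, and per gate marker UMI 1 was higher and 1 lower. Nrarp, a target and inhibitor of Notch signalling, had the lowest ratio, at 10.8 CPM in Ter119 and 35.7 CPM in saline (0.303, 0.176 to 0.497). The fringe genes Lfng and Mfng, whose enzymes modify Notch receptors, were also lower. Lfng stood at 39.5 CPM in Ter119 and 94.4 CPM in saline, and Mfng at 19.5 CPM in Ter119 and 45.1 CPM in saline. Lfng was more abundant in cells that were neither gated nor mixed, at 80.0 CPM in Ter119 and 187.9 CPM in saline. Ncstn, a subunit of the protease that cleaves Notch, stood at 73.5 CPM in Ter119 and 146.3 CPM in saline, a ratio of 0.502.

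Of the genes on the hepcidin and iron handling list, more were higher than lower in Ter119. Of 26 tested by edgeR, 2 were higher and 12 lower in gated than in other cells, beside 17.8% and 18.2% of all genes. Between Ter119 and saline, 6 of 21 were higher and 1 lower by 2-fold or more, beside 2.70% and 6.16% of all genes, with a median log2 ratio of 0.11. The lower gene was Hamp, which encodes hepcidin, with 0 UMIs in Ter119 and 49 UMIs (20.8 CPM) in saline gated cells. Other cells held it at 0.39 CPM in Ter119 and at 18.1 CPM in saline, a level like that of saline gated cells. Hmox1, the heme-degrading enzyme, stood at 1500 CPM in Ter119 and 131.0 CPM in saline gated cells, a ratio of 11.5 (10.2 to 12.9). Fth1, the ferritin heavy chain, stood at 7869 CPM in Ter119 and 1257 CPM in saline. Nqo1, an NRF2 target, stood at 29.7 CPM in Ter119 and 5.95 CPM in saline, a ratio of 4.99 (2.74 to 9.72), and Gclm, another NRF2 target that serves glutathione synthesis, at 302.7 CPM in Ter119 and 75.7 CPM in saline. Other cells also held these transcripts, with Hmox1 at 5060 CPM in Ter119 and 905.7 CPM in saline and Fth1 at 26510 CPM in Ter119 and 5628 CPM in saline. Nqo1 differed from them, since it was at 3.45 CPM in other Ter119 cells and 0.598 CPM in other saline cells, below its level in gated cells. How far RNA of other cells contributes to Hmox1, Fth1 and Gclm in gated cells was not tested.

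Of 36 genes of endothelial identity and angiocrine function, 28 were higher and 2 lower in gated than in other cells by edgeR, beside 17.8% and 18.2% of all genes, with a median log2 fold change of 3.82. Between Ter119 and saline, 2 of 33 were higher and 7 lower by 2-fold or more, with a median log2 ratio of -0.58, beside 2.70% and 6.16% of all genes and their median of -0.27. The 7 lower genes were 1 with TMM or median-of-ratios factors and 3 without hemoglobin and mitochondrial genes. Per gate marker UMI, 5 were higher and 0 lower, with a median of 0.09, against 0.40 over all genes. Sox18, an endothelial transcription factor, stood at 190.8 CPM in Ter119 and 492.5 CPM in saline. Ehd3, a membrane trafficking protein, stood at 1341 CPM in Ter119 and 3184 CPM in saline, and Plpp3, a lipid phosphatase, at 1284 CPM in Ter119 and 3027 CPM in saline. Vcam1, a leukocyte adhesion molecule, stood at 634.0 CPM in Ter119 and 187.5 CPM in saline gated cells, but at 2368 CPM in Ter119 and 764.9 CPM in saline in other cells.

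Over 32 points, each a cluster in 1 library with at least 50 cells, the genes with the highest Pearson correlation of log2(CPM + 10) were described for each of the 6. For Bmp2 they were Kdr and Adgrf5 (r = 0.989 each) and S100a16 (r = 0.988). For Bmp6 they were Arhgef15 (r = 0.988), Myct1 and Cyp4b1 (r = 0.986 each), for Wnt2 Fam171a1 (r = 0.984), Efnb2 (r = 0.978) and Dpysl3 (r = 0.975), and for Dll4 Mapk12 (r = 0.995), Rgs7bp and Tie1 (r = 0.992 each). For Rspo3 they were Pth1r (r = 0.975), Hhip (r = 0.971) and Naalad2 (r = 0.969). Wnt9b was under 20 CPM in each point and was not ranked. The points share libraries and differ in their content of endothelial RNA. Efnb2, which ran with Wnt2 over clusters, ran against it among gated cells.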

How the data were processed

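Single-cell RNA counts of 1 Ter119 and 1 saline liver macrophage preparation were used. The authors deposited raw UMI counts per gene and barcode, in matrices that name Cell Ranger 6.0.2, per the file headers. The submitters' processing notes name DESeq2 1.26.0, Seurat 3.2.3, Scanpy 1.7.0 and Cell Ranger 4.0.0, with GRCm38.p6 as build. Per the labels' protocols the preparations carried hashtag antibodies and were pooled; the sources used here do not give how they were separated.

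Kept barcodes had 1000 or more UMIs, 500 or more genes and a mitochondrial share of 15% or less. No doublet caller was run, and mixed cells were set apart by the gate. The 12 endothelial gate markers were Pecam1, Cdh5, Kdr, Ptprb, Egfl7, Ramp2, Aqp1, Tie1, Stab2, Clec4g, Gpr182 and Oit3, and the 10 Kupffer markers Clec4f, Vsig4, Cd5l, Marco, Timd4, Cd163, Folr2, Adgre1, C6 and Slc40a1. Clusters used scanpy 1.11.5 and leidenalg 0.10.2 at resolution 1.0 without the 6 genes, and were named from fixed markers by a rule revised after clusters had been seen, comparing each with clusters of its own library. Rebuilt names may differ from the study's.

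Counts were summed per library and class. Ratios have exact conditional binomial 95% intervals, levels exact Poisson and shares exact Clopper-Pearson intervals, with 3 counts as the floor for a count of 0. Genes with at least 20 CPM in 1 library were compared between treatments by a 2-fold size rule. Gated and other cells were compared with edgeR 4.0.16 (R 4.3.3) with TMM factors, mouse as a block and an adjusted p threshold of 0.05, and DESeq2 1.42.0 was an alternative. On simulated counts of this comparison over 13596 genes, 86 of 100 genes changed 4-fold and 91 of 100 changed 8-fold were recovered. Named genes were the 6 genes, gate markers, up to 4 genes per pathway list with the largest ratio between treatments and the 3 genes most like each. Hjv was not measured under that name. Members and lists were chosen with earlier results of these data known.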

Additional observations from a re-analysis of the deposited data

How the results depend on the processing

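Each of the 6 genes was higher in gated than in other cells of both libraries under all settings run for that comparison, with the lowest log2 ratio 0.13 (Rspo3, saline, endothelial-like clusters in place of the gate). For edgeR the paired fit was the one reported, since both classes come from the same mouse. The fit with no replicate block called 1506 genes higher and 990 lower, against 2450 and 2505, and lost Wnt9b. Leaving out a mouse leaves a value and no test. No paired analysis was possible because each treatment is 1 mouse, for Ter119 over saline. The gate held 7.91% of Ter119 and 5.25% of saline cells. It held 2.56% and 3.92% at 5 times the Kupffer marker UMIs, 15.99% and 28.5% with no Kupffer condition, 14.4% and 7.17% with endothelial-like clusters, 5.00% and 2.36% at 5% mitochondrial UMIs, and 7.37% and 4.84% without cells with stellate markers. It held 2.42% of Ter119 cells at 2000 UMIs and 7.37% without Cdh5 and Pecam1 as markers. Members at least 2-fold higher in Ter119 numbered 0, but 5 with no Kupffer condition and 1 (Rspo3) with 5 times the Kupffer UMIs, the thinned gate, clusters, 2000 UMIs, no stellate markers, no Cdh5 and Pecam1, and under each other scaling. Members at least 2-fold lower numbered 1, but 0 with no Kupffer condition and under each other scaling, 2 with clusters or 5% mitochondrial UMIs, and 3 at 2000 UMIs. Log2 ratios reversed with no Kupffer condition to 0.99 (Bmp2), 1.72 (Bmp6), 1.22 (Wnt2) and 1.32 (Dll4). Bmp6 reversed to 0.0110 with TMM, 0.00898 with median-of-ratios factors and 0.42 per gate marker UMI, where Dll4 reached 0.13. Wnt9b reversed to -1.71 at 5% mitochondrial UMIs and -0.0419 without stellate markers. Genes at least 2-fold higher numbered 193, but 628 with no minimum level, 290 with TMM and 780 per marker UMI. Genes at least 2-fold lower numbered 441, but 1327, 196 and 83, and 198 with median-of-ratios factors. The cause of these shifts was not tested. The per-marker scale, the stellate cut and the marker set without Cdh5 and Pecam1 were chosen after seeing the data. Depth limits Wnt9b and Rspo3, whose saline counts were 9 and 25 UMIs.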

Other observations

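Transcripts of hepatocytes, the cells that BMP2 and BMP6 act on, were present in both libraries although no cluster was named hepatocyte-like. At the lower clustering resolution 2 clusters, of 12 saline cells and of 10 saline and 1 Ter119 cells, matched hepatocyte markers best but held too few cells to be named. Hamp, which encodes hepcidin, had 17 UMIs in all kept Ter119 cells (0.375 CPM) and 1504 UMIs in all kept saline cells (18.2 CPM), a ratio of 0.0206 (0.0120 to 0.0331). The 8 hepatocyte markers summed to 14946 UMIs in Ter119 and 178313 in saline. Per UMI of these markers, Hamp was at 0.135 (0.0784 to 0.217) in Ter119 relative to saline, while the 8 markers themselves ranged from 0.544 for Cps1 to 2.18 for Ass1, with Alb at 1.01 (0.987 to 1.03). The Hamp UMIs were spread over 16 Ter119 and 1297 saline cells. Hamp and the markers were chosen for this after their levels had been seen. Mouse Hamp has a near-identical copy, Hamp2, so its counts are uncertain. Each value is 1 mouse, and whether the transcripts were free RNA or inside the cells was not tested.

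A saline cluster of 82 cells that met no class name, led by Saa3, Fn1 and Prg4, had Wnt2 at 48.5 CPM (24 UMIs, 31.1 to 72.2) beside Clec4g at 46.5 CPM and Bmp2 at 32.3 CPM. In saline gated endothelial cells Wnt2 was at 237.3 CPM beside Clec4g at 2889 CPM and Bmp2 at 2052 CPM. The cluster was named here after its values were seen, and which cells it holds was not tested.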
